A study of Sus scrofa with 12 samples.

Results

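Steroid handling and estrogen sulfation were followed in pig (Sus scrofa) blastocysts through 8 genes: TSPO, STAR, CYP11A1, FDX1, CYP17A1, PAPSS2, SULT1E1 and PGRMC1. Hatched blastocysts, collected 5.5 days after in vivo insemination, were compared with early blastocysts collected at 5 days on 2 microarray designs of 6 arrays each. Every array carried RNA of both stages in different dyes, with the hatched stage in Cy5 on 3 arrays of a set and the early stage in Cy5 on the other 3. No treatment or genetic change is named, and the labels say neither how many embryos went into an extract nor whether arrays came from separate litters, so the spread between arrays may be technical. Probes were taken by the gene symbol of the platform annotation, which gave 6 of 43794 probes on the first array set, for 5 genes, and 22 of 45220 on the second, for 7 genes. SULT1E1, CYP11A1 and FDX1 had no probe with that symbol on the first array set, and PAPSS2 had none on the second.

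Steroid hormones are built from cholesterol. STAR carries cholesterol to the inner mitochondrial membrane and TSPO binds it in the outer one. CYP11A1 then cleaves the side chain, with electrons passed on by the iron-sulfur protein FDX1, and CYP17A1 turns the product towards androgens, from which aromatase makes estrogens. Pig conceptuses are known to secrete estrogens when they elongate, some days after hatching. Sulfation switches estrogens off: SULT1E1 transfers the sulfate, PAPSS2 makes its donor PAPS, and the sulfatase STS reverses the step.

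The deposited value was 1 log ratio of the 2 stages per probe and array, taken here as log2. The numerator is not stated, so ratios are called positive or negative as deposited and nothing is said of which stage was higher. In whole embryos a smaller number of cells of a type and less RNA per cell cannot be told apart, and a ratio gives no level, so neither the presence of a transcript nor the markers of the blastocyst could be checked. Arrays are named by the stage in Cy5 and a replicate number in order of deposition. After removal of the mean and the dye term, the arrays of both sets varied together in the same 3 pairs of opposite dye. Hatched in Cy5 replicate 1 went with early in Cy5 replicate 2 (pair 1; correlation over genes 0.673 and 0.662 on the first and the second array set), hatched 2 with early 1 (pair 2; 0.725 and 0.746), and hatched 3 with early 3 (pair 3; 0.358 and 0.556). No other hatched and early array correlated above 0.0366. The labels do not name these pairs, which may be dye swaps of the same RNA.

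The 8 genes were chosen by their role and with their stage ratios known, those of SULT1E1, PAPSS2 and TSPO being among the largest, so these ratios are described without a p-value and their counts support nothing. With the 6 arrays of a set as separate samples, on the first array set 2 of 5 genes were past an adjusted p of 0.05 in limma, against 4.75% of all 11913 genes there. These were 1 positive and 1 negative gene, against 2.38% of all genes either way. On the second array set 5 of 7 were past it, against 11.0% of 4531 genes: 3 were positive, against 5.27%, and 2 negative, against 5.72%. All 6 arrays lay on 1 side for 2 of the 5 genes, against 9.24% of all genes, and for 5 of the 7, against 15.2%. By probe it was 2 of 6, against 4.81% of all probes with a symbol, and 10 of 22, against 9.82%. With the averages of the 3 pairs as samples the counts were 0 of 5 and 0 of 7, where 0 and 4 of all genes passed. At an unadjusted p under 0.05 in limma these averages gave 2 and 5, against 1271 of all 11913 genes and 725 of all 4531. With single arrays as samples, the adjusted count on the first set was 1 without early in Cy5 replicate 2, which ended the call of PAPSS2. That on the second was 3 when hatched in Cy5 replicate 1 or 3 was left out, and also without early 2 or early 3, each of which ended the calls of TSPO and STAR.

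Whether a ratio followed the dye was tested apart from the stage. None of the 5 and 7 genes had a dye term in limma (smallest adjusted p = 0.284 in the first set and 0.530 in the second, and 0 of each at an unadjusted p under 0.05). The terms lay between -0.15 and 0.12 on the first set and between -0.09 and 0.28 on the second. Over all genes 0.991% and 0% had one at the adjusted threshold. At an unadjusted p under 0.05 in limma it was 2537 of 11913 and 648 of 4531 genes. Counts of 0 among 5 and 7 genes thus say little about dye effects on these arrays.

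**Figure D1:**
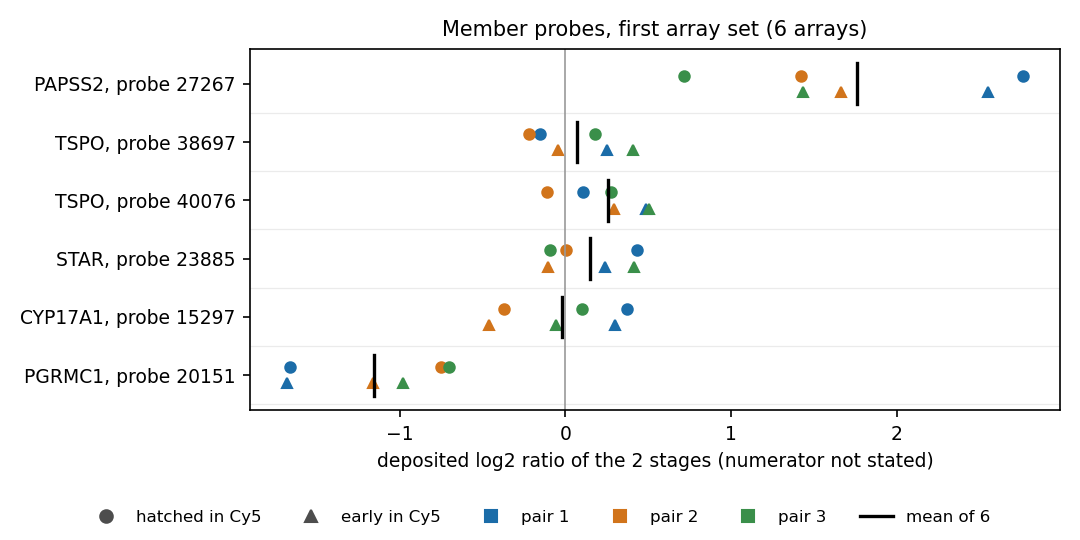
Deposited log2 ratios (horizontal axis) of the 6 probes of the first array set, 1 row per probe. Circles are arrays with the hatched stage in Cy5, triangles those with the early stage in Cy5, colours mark the 3 pairs of arrays that varied together, and the bar is the mean of 6 arrays. PAPSS2 lies at 0.71 or above and PGRMC1 at -0.70 or below on every array, and the other 4 probes straddle 0.

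For cholesterol entry into mitochondria, TSPO differed between the array sets. Its single probe on the second set (probe 40754) gave log2 ratios of 5.34, 0.44 and 3.06 with hatched in Cy5 and 0.52, 4.07 and 2.55 with early in Cy5. All 6 were positive, but the 2 arrays of pair 2 lay near 0.5 while the other 4 lay at 2.55 or above. The mean was 2.66 ± 0.65 (SE of the fit, n = 6 arrays), rank 4 on the positive side of the 4531 genes. On the first set probe 38697 gave -0.15, -0.22 and 0.18 with hatched in Cy5 and -0.04, 0.25 and 0.41 with early in Cy5, and probe 40076 gave 0.10, -0.11 and 0.28 and then 0.30, 0.49 and 0.51. No array of either first-set probe exceeded 0.51. The gene mean there was 0.17 ± 0.07, and the first array set gives no accession for these probes. The sets were normalized separately, so the difference between them was not tested.

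STAR, the acute regulator of cholesterol import, was read by 8 probes on the second array set, and they differed. Probe 37356 gave 1.93, 0.51 and 1.39 with hatched in Cy5 and 0.42, 1.42 and 0.76 with early in Cy5, all positive, with a mean of 1.07 ± 0.20 (SE). Probe 29912 gave 0.77, 0.54 and 0.52 and then 0.23, 0.42 and 0.27, with a mean of 0.46 ± 0.07. These were the 2 STAR probes past the threshold. Means of the other 6 lay between -0.05 and 0.19, with single arrays from -0.33 to 0.51. Probe 37356 carries the same RefSeq accession as 5 of these 6, so a shared accession did not bring a shared ratio. The mean over the 8 probes, 0.27 ± 0.07, was past the threshold, whereas their median of 0.20 was not. The single probe of the first set (23885) had 0.43, 0.00196 and -0.09 with hatched in Cy5 and -0.10, 0.24 and 0.42 with early in Cy5, on both sides of 0.

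Side-chain cleavage rested on a single probe as well. CYP11A1, the enzyme that commits cholesterol to steroid synthesis, had 4 probes on the second set. Probe 809, annotated to a cDNA clone, gave 2.73, 1.54 and 0.63 with hatched in Cy5 and 1.54, 1.93 and 0.45 with early in Cy5, all positive and with a mean of 1.47 ± 0.29 (SE). The 3 probes annotated to the RefSeq transcript had means of 0.03 (probe 11623), -0.28 (23609) and -0.31 (24520), and no array of theirs exceeded 0.31. Probe 24520 was negative on every array. Every array of probe 809 thus lay above every array of the other 3. Averaged over probes the gene lay at 0.23 ± 0.07 and was not past the threshold, although probe 809 was. Whether probe 809 reads another transcript was not tested.

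FDX1, which hands electrons to CYP11A1, was positive by 2 of its 3 probes on every array of the second set. Probe 12167 gave 1.40, 1.10 and 1.25 with hatched in Cy5 and 0.95, 1.34 and 0.96 with early in Cy5, with a mean of 1.17 ± 0.09 (SE). Probe 19597 gave 0.97, 1.07 and 1.15 and then 0.95, 0.55 and 0.80, with a mean of 0.91 ± 0.08. Probe 6322, annotated to the same transcript, gave 0.99 and 1.07 on hatched in Cy5 replicates 2 and 3 and 0.73 and 0.70 on early in Cy5 replicates 1 and 3, but -0.26 and -0.32 on the 2 arrays of pair 1. Pair 1 was thus on the negative side in 1 FDX1 probe and on the positive side in both others. The gene mean was 0.86 ± 0.08, rank 74 on the positive side.

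CYP17A1, the enzyme on the way to androgens, showed the smallest ratios. Its 2 probes on the second set had means of -0.12 (probe 4603, arrays from -0.26 to 0.08) and -0.07 (probe 26883, -0.27 to 0.23). On the first set probe 15297 had 0.37, -0.37 and 0.10 with hatched in Cy5 and -0.46, 0.30 and -0.06 with early in Cy5, a mean of -0.02 ± 0.12 (SE). Pair 1 lay above 0 there, pair 2 below it and pair 3 at 0.02. The gene was not past the threshold on either set.

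**Figure D2:**
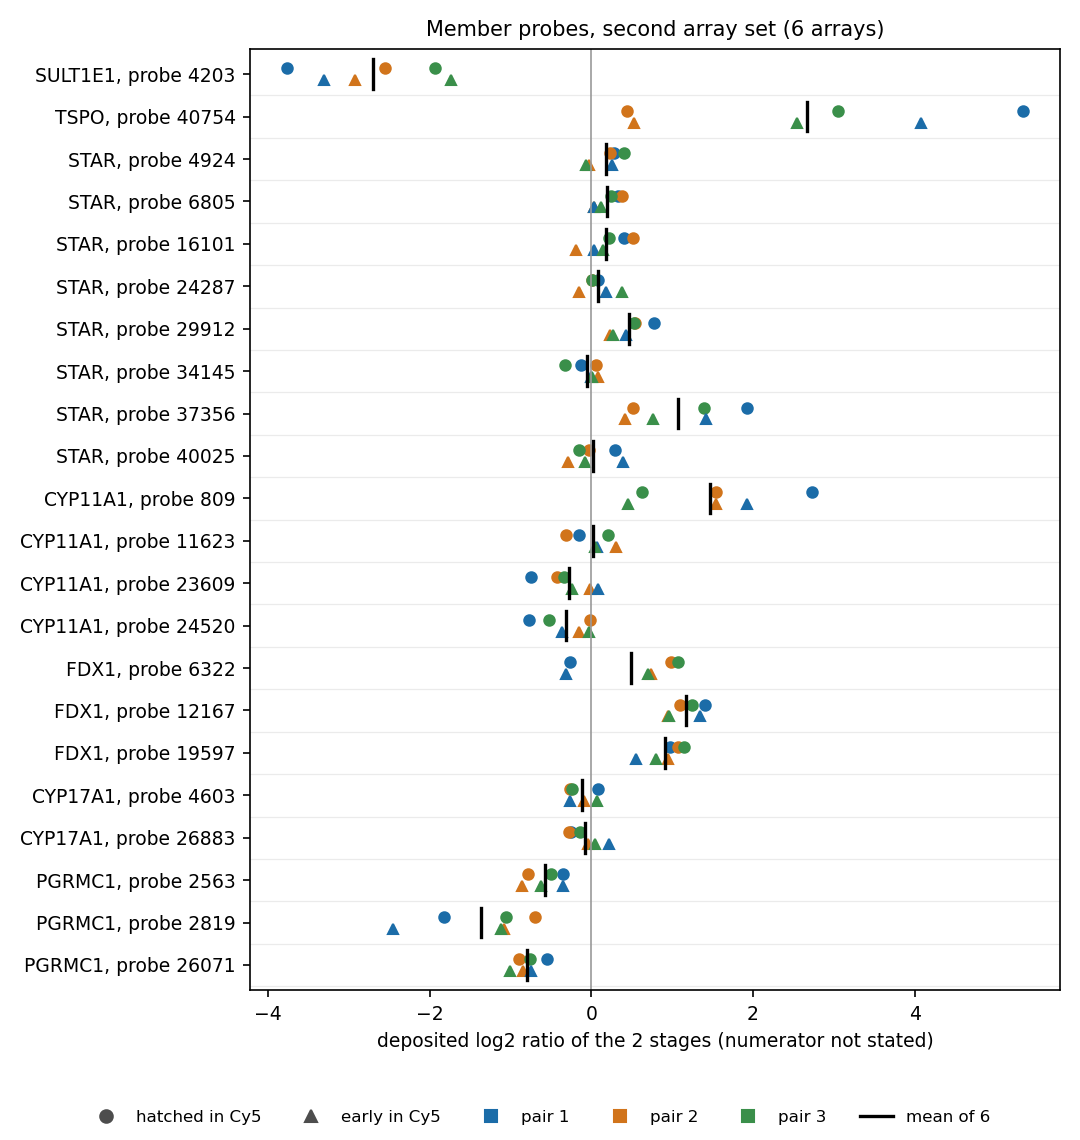
Deposited log2 ratios (horizontal axis) of the 22 probes of the second array set, 1 row per probe, with the marks as for the first array set. SULT1E1 lies at -1.74 or below on every array. Probe 40754 of TSPO, 37356 of STAR and 809 of CYP11A1 spread by pair. Most other STAR and CYP11A1 probes have arrays on both sides of 0, and probe 24520 of CYP11A1 is negative on every array.

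Both steps of estrogen sulfation had large ratios, each from 1 probe on 1 array set. SULT1E1, known in the pig from the endometrium, gave -3.76, -2.55 and -1.93 with hatched in Cy5 and -2.93, -3.31 and -1.74 with early in Cy5 on the second set (probe 4203). All 6 arrays were negative, and the mean was -2.70 ± 0.27 (SE), rank 1 on the negative side of the 4531 genes. PAPSS2, the PAPS synthase, gave 2.76, 1.42 and 0.71 with hatched in Cy5 and 1.66, 2.55 and 1.44 with early in Cy5 on the first set (probe 27267). All 6 were positive, and the mean was 1.76 ± 0.26, rank 9 of 11913 genes on that side. The donor enzyme and the transferase lay on opposite sides of the deposited ratio, but on sets whose numerators are both unstated, so this opposition holds only if the sets run the same way. PGRMC1, below, was on 1 side in both.

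PGRMC1, a heme-binding membrane protein that associates with cytochromes P450 and with progesterone signalling, was past the threshold by every probe on both sets. Probe 20151 of the first set gave -1.66, -0.75 and -0.70 with hatched in Cy5 and -1.16, -1.68 and -0.98 with early in Cy5, with a mean of -1.15 ± 0.15 (SE), rank 28 on the negative side. On the second set the 3 probes had means of -0.57 (probe 2563), -1.37 (2819) and -0.80 (26071). Their single arrays lay between -2.46 and -0.34, so no array of any PGRMC1 probe was positive. The gene mean was -0.91 ± 0.06, rank 44. Pair 1 had the largest size by probe 2819 (-2.14 on average) and the smallest by probe 2563 (-0.35).

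How far probes of a gene differed was set beside other genes of the second array set. Among its 2394 genes with several probes the median range of probe means was 0.222. The range was 1.78 for CYP11A1, above 99.2% of these genes, 1.12 for STAR (95.3%), 0.79 for PGRMC1 (87.5%), 0.68 for FDX1 (84.0%) and 0.05 for CYP17A1 (10.6%). A gene with more probes has a wider range by construction. TSPO on the first set had a range of 0.19, above 50.2% of 3326 such genes.

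The 12 probes of these genes past the threshold, over both sets, varied mostly between pairs of arrays: in 9 of them the largest gap between the 2 arrays of a pair was smaller than the range of the 3 pair means. SULT1E1 had pair means of -3.53, -2.74 and -1.84 for pairs 1, 2 and 3, with the 2 arrays of a pair at most 0.46 apart. PAPSS2 had 2.66, 1.54 and 1.08, probe 809 of CYP11A1 2.33, 1.54 and 0.54, and TSPO 4.71, 0.48 and 2.80. The size was largest on pair 1 in 9 of the 12 probes, on pair 2 in 2 and on pair 3 in 1. As the pairs come from the residuals of all genes and replicates have no order, these are descriptions of the arrays. The same counts were not taken over other probes, so they are not shown to be particular to these genes.

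**Figure D3:**
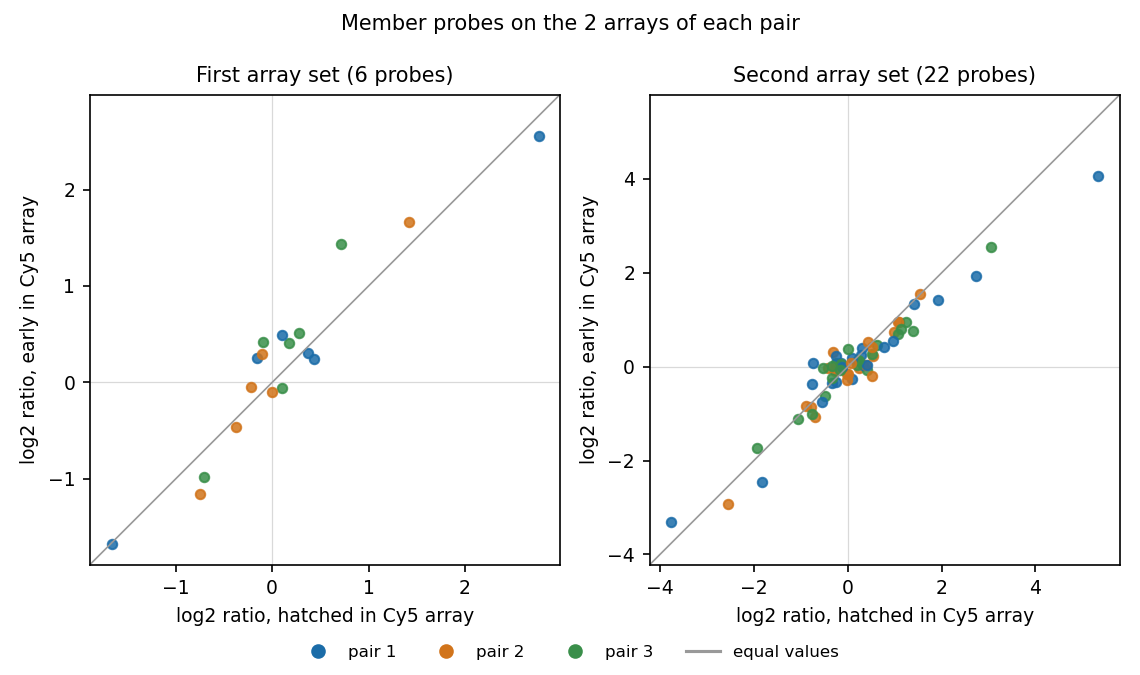
Deposited log2 ratios of the 8 genes' probes on the hatched in Cy5 array (horizontal axis) and the early in Cy5 array (vertical axis) of each pair, 1 point per probe and pair, with the line of equal values. Points of large size lie on the same side of 0 on both arrays of a pair, and TSPO ranges from 0.44 on pair 2 to 5.34 on pair 1.

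For each gene past the threshold, the 3 genes with the nearest ratios, LOC symbols left aside, were taken by the root mean square difference over the 6 arrays of that set. For TSPO the nearest of the second set was the interferon-inducible gene ISG12(A), 0.365 away, with arrays from 0.23 to 5.39, followed by the uterine protease inhibitor gene UPTI (0.996) and the bile acid transporter gene SLC10A1 (1.07). SULT1E1 had no such near gene: JARID2 (1.29), CTSV (1.31) and WNT2B (1.38) were its nearest, with ratios smaller in size. The difference was not scaled for size and SULT1E1 had the most negative ratio, so this distance says little of its pattern over arrays. PAPSS2 was nearest to the cytidine deaminase gene CDA (0.315), to NPC1 (0.433) and to APOC2 (0.455) on the first set. FDX1 was nearest to TMEM5 (0.191), NPC2 (0.194) and CXCL16 (0.218), and STAR to PEA15 (0.0931), SKIV2L (0.105) and KIF5B (0.109). PGRMC1 was nearest to KCTD1 (0.213), FAM149A (0.250) and SYCP3 (0.269) on the first set and to PRDX4, PDXK and CCR1 (0.150 to 0.155) on the second. Nearness says that ratios were alike on these arrays and no more.

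Beyond the 8 genes, 4 lists of the same biology were read in the same fit. These lists were chosen with earlier results of these data known, so their counts and p-values are descriptions and support nothing. On the first array set 6 of 64 measured genes were called, 4 positive and 2 negative, against 2.38% of all genes each way. On the second set it was 6 of 43, all positive, against 5.27%. The median log2 ratio of these genes was 0.0021 and 0.0083, and that of all genes 0.0027 and 0.0050. With the averages of the 3 pairs as samples 0 and 1 were called, where 0 and 4 of all genes passed. At an unadjusted p under 0.05 in limma these averages gave 12 of 64 and 8 of 43, against 1271 of all 11913 genes and 725 of all 4531. With single arrays as samples, the adjusted count on the first set was 3 when hatched 3, early 2 or early 3 was left out. Unless pair averages are named, the adjusted p-values of single genes below take the 6 arrays as separate samples.

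In sulfation and PAPS supply 1 of 12 and 1 of 5 measured genes were called, against 4.75% and 11.0% of all genes. On both sets this was STS, the sulfatase that frees steroids from their sulfate. It lay at 0.52 ± 0.05 (SE, n = 6 arrays; limma adjusted p = 0.00284) on the first set and at 0.87 ± 0.05 (adjusted p = 0.000423) on the second. With the averages of the 3 pairs as samples the limma adjusted p of STS was 0.0988 and 0.0513, past the threshold on neither set. On the first set all arrays lay between 0.47 and 0.58, and on the second between 0.70 and 1.12. Here too 1 probe carried the ratio: the 3 probes of the first set had means of 1.26 (probe 15595), 0.19 and 0.10, and the 2 of the second 1.59 (38302) and 0.15. STS and SULT1E1, which run opposite reactions, thus had opposite signs on the second set. The list medians were -0.07 and -0.01. The nearest to a call after it were TPST2 at -0.20 ± 0.06 (adjusted p = 0.117) on the first set and the PAPS transporter gene SLC35B3 at -0.23 ± 0.07 (adjusted p = 0.0880) on the second.

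Cholesterol delivery had 3 of 13 genes called on the first set and 4 of 11 on the second, all positive. Of all genes 2.38% and 5.27% were called on that side. The list medians were 0.05 and 0.13. NPC1 and NPC2, which move cholesterol out of lysosomes, were called on both. NPC1 lay at 1.97 ± 0.22 (adjusted p = 0.00479) on the first and 1.10 ± 0.17 (adjusted p = 0.00786) on the second set, and NPC2 at 0.65 ± 0.07 (adjusted p = 0.00533) and 0.82 ± 0.07 (adjusted p = 0.00153). With pair averages as samples the limma adjusted p on the first set was 0.115 for NPC1 and 0.136 for NPC2. LIPE, the hormone-sensitive lipase that releases cholesterol from its esters, lay at 1.25 ± 0.25 (adjusted p = 0.0390) on the first set, with 0.06 and 0.63 on the arrays of pair 2 and 1.38 or more on the others, and at -0.04 on the second set without passing. On the second set VDAC1, a channel of the outer mitochondrial membrane, lay at 0.78 ± 0.08 (adjusted p = 0.00216) and DBI, the acyl-CoA-binding protein known as a ligand of TSPO, at 0.51 ± 0.05 (adjusted p = 0.00239). The 3 DBI probes had means of 1.17, 0.31 and 0.06. On the first set VDAC1 lay at 0.39 and DBI at 0.46, neither past the threshold.

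Of the steroid hormone enzymes 1 of 23 was called on the first set and 0 of 18 on the second. Of all genes 4.75% and 11.0% were called. On the second set 3 of these enzymes had an unadjusted p under 0.05 in limma. The share of all genes at that threshold was not taken in this fit, so the count says nothing about the list. The smallest p-values there were those of HSD17B4 (0.46 ± 0.13; adjusted p = 0.0578) and HSD17B8 (0.28 ± 0.09; adjusted p = 0.0905). The gene called on the first set was CYB5A, the cytochrome b5 that assists CYP17A1, at -0.32 ± 0.06 (adjusted p = 0.0227). It was negative on all 6 arrays and by all 5 probes on average (-0.53 to -0.15). On the second set CYB5A lay at -0.30 and was not past the threshold. The aromatase genes CYP19A1, CYP19A2 and CYP19A3 lay at 0.06, -0.08 and 0.04 on the second set, and HSD3B1 at -0.01 and -0.03 on the 2 sets, none of them past it. The list medians were 0.07 and -0.01.

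Among steroid receptors and membrane partners, 1 of 16 genes was called on the first set and 1 of 9 on the second. Of all genes 4.75% and 11.0% were called. PAQR5, a membrane progesterone receptor, lay at -1.10 ± 0.22 (adjusted p = 0.0390) on the first set, with -0.19 and -0.48 on the arrays of pair 1 and -1.10 or below on the others. PAQR8, another one, lay at 1.33 ± 0.08 (adjusted p = 0.000339) on the second set, from a probe with a mean of 2.63 (probe 22682) and another at 0.03, and at 0.06 on the first set without passing. PGRMC2, the paralog of PGRMC1, lay at 0.08 and -0.04, and the nuclear receptor genes PGR and ESR1 at -0.11 and 0.03 on the first and -0.14 and 0.03 on the second set. None of these passed. The list medians were -0.01 and 0.02. CYB5A and LIPE were no longer called when hatched 1, hatched 3, early 2 or early 3 was left out. PAQR5 was still called when hatched 1 was left out and for no other array. With pair averages as samples the limma adjusted p on the first set was 0.225 for CYB5A, 0.265 for LIPE and 0.258 for PAQR5.

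**Figure D4:**
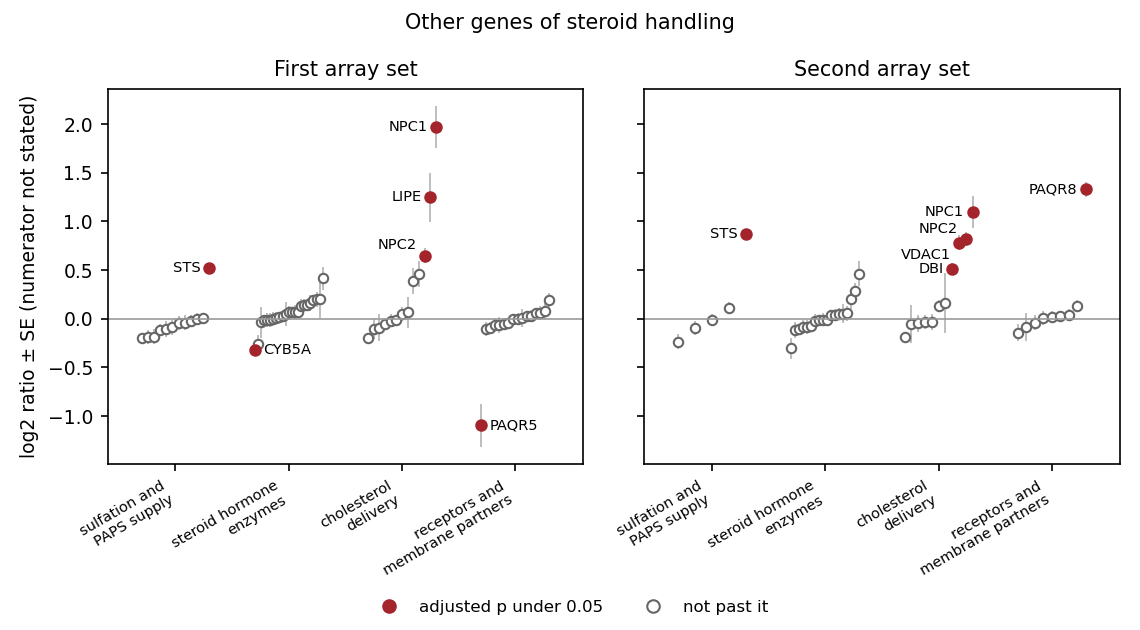
Log2 ratios (vertical axis, mean of 6 arrays with the fit's SE) of the measured genes of 4 lists related to steroid handling, on the first (left) and the second (right) array set, each list sorted by ratio. Filled points passed an adjusted p of 0.05. On the second set all 6 filled points are positive, and on the first CYB5A and PAQR5 lie below 0.

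Flushed embryos can carry maternal cells, and some of the 8 genes are known from such cells. Over all genes limma called 4.75% on the first set and 11.0% on the second, where 5.27% were called on the positive side. The share of all genes at an unadjusted p under 0.05 in this fit was not taken. Markers of oviduct and uterine epithelium had 0 of 12 called by limma on the first set (3 at an unadjusted p under 0.05) and 2 of 8 on the second, both positive: UPTI at 2.97 ± 0.40 (adjusted p = 0.00496) and the uteroferrin gene ACP5 at 0.32 ± 0.06 (adjusted p = 0.0164). UPTI had 4.43, 1.83 and 2.34 with hatched in Cy5 and 2.11, 4.46 and 2.65 with early in Cy5, highest on pair 1. On the first set UPTI lay at 0.60 without passing. The 4 ACP5 probes of the second set had means from -0.03 to 0.82. Over that list the median per array lay between -0.07 and 0.18 on the first and between -0.02 and 0.19 on the second set. Markers of cumulus, granulosa and theca cells, 3 of them also among the steroid hormone enzymes, had 0 of 14 (2 at an unadjusted p under 0.05) and 1 of 12 called. The called one was AMH at 0.35 ± 0.08 (adjusted p = 0.0293), with means of its 4 probes from -0.05 to 1.16. On the first set AMH lay at 0.55 without passing. Array medians of this list lay between -0.16 and 0.13 and between -0.13 and 0.10. Blood markers had 0 of 12 and 0 of 11 called (0 and 0 at an unadjusted p under 0.05), with array medians between -0.10 and 0.15 and between -0.06 and 0.09. Their part in the ratios of the 8 genes was not tested.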

How the data were processed

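Two-colour arrays of hatched against early pig blastocysts were read from the deposited value tables, 6 arrays per array set. The authors deposited log ratios of the 2 channels, taken here as log2; per the labels, RNA was amplified in 2 rounds with T7 RNA polymerase and labelled chemically. Not given in the sources used here are the log base, scanner, normalization and numerator. Single values of -12.7 and 12.2 on the second set are too wide for log10, and a natural log was not tested. Array medians lay between -0.0061 and 0.0105.

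Symbols came from GEO's platform annotation, updated through RefSeq names (Sscrofa11.1), and probes of 1 symbol were averaged, which gave 11913 and 4531 genes. Each set was fitted with limma 3.58.1 (R 4.3.3; lmFit, eBayes) with a stage ratio and a dye term, 2-sided, Benjamini-Hochberg adjusted over all genes, or over all 18121 and 10290 probes with a symbol, threshold 0.05. The fit was tested on simulated data with independent noise on each array. That setting holds no pairs of arrays that vary together, so it cannot show the error rate of the fit on the real arrays. The number of arrays limits the precision. Alternatives covered arrays, pairs, slides, dye, direction, probes, centring and names.

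The 8 genes and the lists were chosen with earlier results of these data known. Named beyond the 8 were each list's called genes (where none, the 2 with the smallest p), the 3 nearest genes of each called member, and, chosen after their values were seen, the second-ranked sulfation genes, the aromatases, HSD3B1, PGRMC2, PGR, ESR1 and genes named again on the other array set.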

Additional observations from a re-analysis of the deposited data

How the results depend on the processing

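Numbers of genes past the threshold depended on which arrays count as samples. Of the 8 genes' 5 on the first array set, 2 were called, between 1 and 2 without 1 array, and 0 with the averages of the 3 pairs. Of 7 on the second, 5 were called, between 3 and 5 without 1 array, 3 with the slide as a block and 0 with pair averages. Of the genes of the 4 related lists, 6 were called on the first set, between 3 and 5 without 1 array, 3 with the slide as a block and 0 with pair averages. On the second set 6 were called, 6 without any 1 array, 1 with pair averages and 11 with each probe as a feature, where a gene has several chances. Within the slide with 4 arrays the counts were 2 and 4 of the 8 genes and 4 and 5 related genes. With the pairs as a random block they were 2 and 4, and 6 and 6. The slide with 2 arrays allowed values only. The dye term called 0 of the 8 genes in those of these fits that held one. Of the ratios of single named genes under all alternatives, 388 stayed on their side of the threshold (or, with no test, within the spread of the arrays) with no called sign turned, 66 lost a call, 4 gained one, 1 moved by more than that spread and 9 called signs turned.

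Had the values been Cy5 over Cy3 on every array, the early in Cy5 arrays would need their sign turned. The calls were then 0 and 0 for the 8 genes, 0 and 0 for the related genes, and 2 and 5 for the dye term, because stage and dye exchange places. Under that reading signs turned, on the first set, for PAPSS2 (-0.13), PGRMC1 (0.12), STS (-0.0030), CYB5A (0.12), NPC1 (-0.061) and PAQR5 (0.040), and on the second for PGRMC1 (0.094), STS (-0.15) and PAQR8 (-0.024). No other alternative turned the sign of a called ratio. The replicate numbers follow the order of deposition and pair no arrays, so no fit used them as a block; the pairs above came from the residuals.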
